A study of Mus musculus with 7 samples.

Results

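Nearly all mitochondrial proteins are made in the cytosol and carried into the organelle, and the genes described here encode the machinery that imports them, folds them and removes the damaged ones. The set held every mouse gene whose symbol on the array began with Timm or Tomm and a digit, together with a named list of 42 genes for partner subunits, chaperones, peptidases and proteases, which gave 48 genes in all. Of these, 46 were read by a probe set with 1 gene symbol, out of 19938 genes measured that way. The remaining 2, Phb and Timm10b, shared their probe sets with Fyb and Dnhd1, so they have no value of their own here.

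RNA came from the extensor digitorum longus (EDL), a mouse hindlimb muscle made mostly of fast-twitch fibres, and each mouse was read on 1 single-colour array. The 3 knockout (KO) arrays came from mice labelled as AMPKα1α2 double knockouts, which lack both catalytic subunits of AMP-activated protein kinase, the energy sensor of the cell, and the 4 wild type (WT) arrays from mice without that deletion. The strain background of all 7 mice mixed C57/Bl6 with SV129. The labels do not give age, sex, exercise state, or the cells in which the deletion acts, and the title of the series concerns how AMPK affects fatty acid use by exercising muscle. For these genes the comparison asks how transcripts of the import and quality control machinery differ between the genotypes.

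Proteins bound for mitochondria pass the outer membrane through the TOM complex, whose pore is Tomm40. From there SAM inserts barrel-shaped proteins into the outer membrane, small TIM chaperones escort carriers to the TIM22 complex of the inner membrane, and TIM23 with its motor, built around the chaperone Hspa9, pulls proteins with a cleavable leader into the matrix. Inside, the leader is cut off, Hspd1 and Hspe1 fold the protein, and proteases such as Lonp1 remove what fails to fold. Muscle fibres, which are rich in mitochondria, depend on this machinery when the organelles grow or are renewed.

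The targeted genes and the tissue were read first. Prkaa1, which encodes AMPKα1, differed by -0.51 ± 0.09 (SE) on the log2 scale, and Prkaa2, which encodes AMPKα2, by -0.21 ± 0.07. Neither passed in limma (adjusted p = 0.12 and adjusted p = 0.39). The position of the deletions relative to the probes is unknown here, so the genotypes were taken from the labels. Fast fibre markers were the brightest of the marker lists, with Myh4 at 13.80 in KO and 13.79 in WT muscle, and their summed signal overlapped between the genotypes. Array medians lay between 7.501 and 7.584, and precision is limited by having 7 arrays. In limma, with p-values adjusted by Benjamini-Hochberg over the tested probe sets, 5 of the 19938 genes had an adjusted p under 0.05, or 0.0251%.

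None of the 46 import and quality control genes was among them, and the smallest adjusted p, that of Timm21, was 0.14 in limma. At an unadjusted p under 0.05 in limma, 14 of the 46 were lower in KO muscle and 0 were higher. The same threshold was met by 6.69% of all genes in the lower direction and 3.93% in the higher. For 13 members every KO array lay below every WT array, and for 0 every KO array lay above, against 5.33% and 3.29% of all genes. In all, 39 members had a difference below 0, or 84.8%, where 53.3% of all genes did. Without KO replicate 3 those shares were 73.9% of the members and 61.7% of all genes. The differences were small, with a median of -0.07 on the log2 scale against -0.005 over all genes. Their range ran from -0.39 for Mtx2 to 0.05 for Timm17b, and 30 members lay within 0.1 of 0.

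The members were also brighter than most genes, which bears on these shares. The set had a median level of 9.49 against 7.72 over all genes, and 39 of the 46 lay among the brightest 4985 genes. Of those 4985 genes 16.9% were lower at an unadjusted p under 0.05 in limma and 14.0% were lower without overlap. A difference below 0 was found for 65.0% of them, and their median difference was -0.04. Of the dimmest 4985 genes 0.923% were lower at the same p threshold. How far brightness accounts for the members' share was not tested. In whole muscle, fewer mitochondria-rich cells and less of a transcript per cell cannot be told apart.

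**Figure D1:**
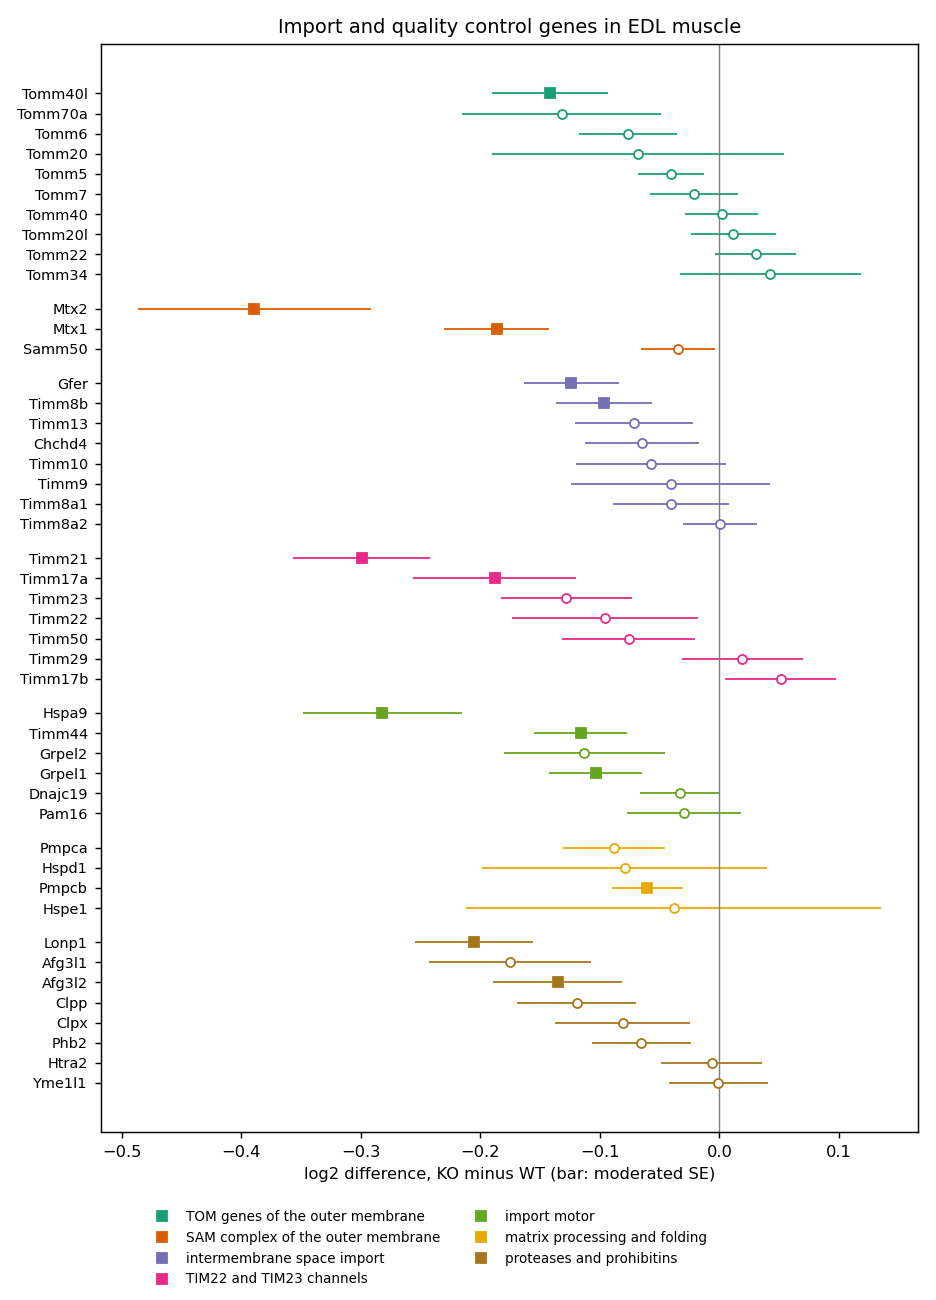
Log2 difference between KO and WT arrays (horizontal axis) for the 46 measured genes, grouped by role, with bars for the moderated standard error. Filled squares mark the 13 genes whose KO values all lay below the WT values, and open circles the others; most points lie left of 0, with Mtx2 at -0.39, Timm21 at -0.30 and Hspa9 at -0.28 the farthest.

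Promoter windows were read for the members from RefSeq (mouse build GRCm38.p6), as 250 bases before to 50 bases after a start site. Of the 46 members 39 had a window and 42 windows were found. The letters of 6 motifs were searched on both strands. CCGGAAG, the core bound by ETS family factors, among them the factor GABP that is known from nuclear genes for mitochondrial proteins, stood in 19 of the 42 windows, or 45.2%, against 8.86% of all 32851 windows and 11.6% of those of protein-coding genes. A form of the NRF1 site, GCGCA and GCGC with 1 base between, stood in 6 windows, or 14.3%, against 4.60% of all windows. The letters TCAAGGTCA, bound by oestrogen-related receptors, occurred in 1 window, that of Timm8b, against 0.423% of all windows. A heat shock element of 3 units, GAA, TTC and GAA with 2 bases between each, occurred in 3 windows, those of Hspd1, Hspe1 and Timm9, against 0.603% of all windows. The windows of Hspe1 and Hspd1 overlap by 285 bases on opposite strands, so the same site is counted for both. This holds for the ETS core count too. The CCAAT box stood in 13 windows, or 31.0%, against 37.4% of all windows, and the E box CACGTG in 7, or 16.7%, against 7.15%. CCGGAAG can lie within a heat shock element match, as it does for Hspe1.

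The ETS core was present in 5 of the 10 members with a window that were lower at an unadjusted p under 0.05 in limma, and in 13 of the 29 others, a difference that was not tested. A match is a description of these letters and not evidence that a factor binds there. The windows of Mtx2, Mtx1 and Timm8b are shown, with the ETS core in capitals. They are examples of genes with that core and with KO values below all WT values. Grpel1 and Pmpcb had both traits too and are not shown. None of these genes passed the adjusted test. For Mtx2 the core occurs at 2 places, and for Mtx1 it is read on the other strand.
Mtx2 (chr2:74825562-74825861, plus strand): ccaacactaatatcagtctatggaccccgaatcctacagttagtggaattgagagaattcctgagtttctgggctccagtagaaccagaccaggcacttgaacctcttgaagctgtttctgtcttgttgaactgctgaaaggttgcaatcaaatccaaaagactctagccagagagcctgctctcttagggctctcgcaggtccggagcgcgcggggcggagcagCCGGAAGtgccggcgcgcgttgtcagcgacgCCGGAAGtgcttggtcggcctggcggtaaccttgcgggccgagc
Mtx1 (chr3:89213858-89214157, minus strand): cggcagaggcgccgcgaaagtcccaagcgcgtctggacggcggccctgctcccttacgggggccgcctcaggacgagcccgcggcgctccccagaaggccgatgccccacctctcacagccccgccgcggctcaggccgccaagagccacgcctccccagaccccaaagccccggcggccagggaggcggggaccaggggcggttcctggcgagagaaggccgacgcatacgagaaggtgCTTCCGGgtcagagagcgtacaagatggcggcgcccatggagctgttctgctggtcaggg
Timm8b (chr9:50603651-50603950, plus strand): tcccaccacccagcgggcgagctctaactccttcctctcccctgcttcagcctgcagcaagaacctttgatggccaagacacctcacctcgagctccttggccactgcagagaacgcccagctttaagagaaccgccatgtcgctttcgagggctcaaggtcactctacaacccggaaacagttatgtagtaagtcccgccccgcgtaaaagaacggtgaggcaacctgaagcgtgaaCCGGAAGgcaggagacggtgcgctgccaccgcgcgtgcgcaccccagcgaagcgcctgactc
The window of Lonp1 is shown for contrast, since Lonp1 also had KO values below all WT values, without passing the adjusted test, and its window holds no ETS core. Its capitals mark the E box.
Lonp1 (chr17:56626854-56627153, minus strand): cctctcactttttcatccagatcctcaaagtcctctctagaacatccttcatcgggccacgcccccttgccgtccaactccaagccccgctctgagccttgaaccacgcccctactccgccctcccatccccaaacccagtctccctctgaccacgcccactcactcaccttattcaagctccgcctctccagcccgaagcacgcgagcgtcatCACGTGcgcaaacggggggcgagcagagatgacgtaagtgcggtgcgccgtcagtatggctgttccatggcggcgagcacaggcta
The window of Hspe1 is shown because it overlaps a window of Hspd1 on the opposite strand by 285 bases, so the chaperonin and its partner share this stretch. The capitals mark 2 overlapping heat shock element matches.
Hspe1 (chr1:55087898-55088197, plus strand): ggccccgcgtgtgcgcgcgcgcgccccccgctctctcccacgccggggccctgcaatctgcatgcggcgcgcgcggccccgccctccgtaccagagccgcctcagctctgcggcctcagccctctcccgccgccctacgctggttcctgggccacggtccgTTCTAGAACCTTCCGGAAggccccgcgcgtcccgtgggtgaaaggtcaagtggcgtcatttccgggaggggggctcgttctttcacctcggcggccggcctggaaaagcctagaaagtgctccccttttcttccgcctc

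At the outer membrane, KO values lay below all WT values for both metaxin genes of SAM and for 1 of the 10 TOM genes. Such a separation was found for 5.33% of all genes and 14.0% of the brightest 4985. Neither metaxin gene nor that TOM gene passed the adjusted test. Mtx2 encodes metaxin 2, a partner of the SAM complex on its cytosolic side, and its promoter carries both ETS cores shown above. It read 9.56, 9.39 and 9.38 in the KO arrays, against 9.82, 9.65, 10.05 and 9.81 in the WT arrays. The groups did not overlap, and WT replicate 3 stood highest. The means were 9.44 ± 0.10 in KO (SD, n = 3) and 9.83 ± 0.17 in WT muscle (SD, n = 4). The difference was -0.39 ± 0.10 (SE), or 1.31-fold lower, the largest among the members, and it did not pass over all genes in limma (adjusted p = 0.25).

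Mtx1, which encodes metaxin 1, the partner of metaxin 2, went the same way. It read 8.915, 8.997 and 8.85 in KO arrays, against 9.09, 9.17, 9.08 and 9.08 in WT arrays, a difference of -0.19 ± 0.04 (adjusted p = 0.23 in limma). All KO values lay below all WT values. Samm50, the barrel protein at the core of SAM, differed by -0.03 ± 0.03, and its groups overlapped. The probe sets therefore showed a separation for both metaxins but not for the core of the complex, and whether the 3 genes differ from each other was not tested.

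The 10 TOM genes had the median nearest 0 of all roles, at -0.03, with 6 genes below 0 and 4 above. Of the 10 genes, 1 was lower at an unadjusted p under 0.05 in limma, against 6.69% of all genes and 16.9% of the brightest 4985. That gene was Tomm40l, a paralog of the pore gene. Tomm40l read 9.31, 9.20 and 9.36 in KO arrays, against 9.42, 9.42, 9.50 and 9.39 in WT arrays, a difference of -0.14 ± 0.05 (adjusted p = 0.39 in limma). The pore gene Tomm40 read 9.19, 9.11 and 9.14 in KO arrays, against 9.14, 9.14, 9.17 and 9.14 in WT arrays. The Tomm40 groups overlapped, with a difference of 0.002 ± 0.03 whose sign turned when each array was centred on its median.

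The receptors of TOM read the leader and hand it to the pore. Tomm70a, the receptor for carrier proteins and chaperone-bound cargo, differed by -0.13 ± 0.08, and by -0.03 without KO replicate 3. Tomm20, the receptor for cleavable leaders, differed by -0.07 ± 0.12, and by 0.07 without that array. Tomm22, the central receptor, differed by 0.03 ± 0.03. For Tomm70a and Tomm20 the value thus rested on the low reading of KO replicate 3.

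The small subunits that steady the pore, Tomm5, Tomm6 and Tomm7, differed by -0.04 ± 0.03, -0.08 ± 0.04 and -0.02 ± 0.04. Tomm34, a cytosolic co-chaperone that carries the name without being a subunit of the pore complex, differed by 0.04 ± 0.08. Tomm20l, a relative of Tomm20, differed by 0.01 ± 0.04. Without KO replicate 2, Tomm34 stood at -0.03.

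Between the membranes, Chchd4 and Gfer run a disulfide relay that traps small cysteine-rich proteins, and Gfer, a sulfhydryl oxidase, reoxidizes Chchd4. Gfer read 9.28, 9.22 and 9.165 in KO arrays, against 9.40, 9.34, 9.33 and 9.30 in WT arrays. The groups did not overlap, with a difference of -0.12 ± 0.04 (adjusted p = 0.36 in limma). Chchd4 differed by -0.06 ± 0.05, with the same value of 7.965 on 4 arrays of both genotypes. Exactly equal values on several arrays were found for 20 of the 46 members, and for 59.4% of all genes, so such steps are a property of the deposited table.

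The small TIM proteins chaperone hydrophobic cargo across the same space. Timm8b, whose promoter holds matches to the ETS, NRF1 and ERR letters, differed by -0.10 ± 0.04, from KO readings of 11.37, 11.29 and 11.27 against 11.42, 11.47, 11.37 and 11.37 in WT arrays. KO replicate 1 lay only just below WT replicate 3, so the separation is thin. Timm13 differed by -0.07 ± 0.05, Timm10 by -0.06 ± 0.06, Timm9 by -0.04 ± 0.08 and Timm8a1 by -0.04 ± 0.05. Timm8a2, the dimmest member at 5.77 on average, differed by 0.0003 ± 0.03.

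At the inner membrane, Timm21 had the smallest p of all members. Its product is known from yeast and human cells to dock TIM23 to TOM and to the respiratory chain. Timm21 read 9.38, 9.175 and 9.295 in KO arrays, against 9.50, 9.61, 9.645 and 9.57 in WT arrays. The groups lay apart, at 9.28 ± 0.10 in KO (SD, n = 3) and 9.58 ± 0.06 in WT muscle (SD, n = 4). The difference was -0.30 ± 0.06 (SE), or 1.23-fold lower, and leaving out each array in turn gave values between -0.35 and -0.25.

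The channel itself is formed by Timm23 and Timm17, and mice have 2 Timm17 genes. Timm17a read 11.42, 11.22 and 11.38 in KO arrays, against 11.595, 11.44, 11.62 and 11.45 in WT arrays, a difference of -0.19 ± 0.07 (adjusted p = 0.41 in limma). Its second probe set, which was dimmer, gave -0.26 ± 0.05. Timm17b read 9.66, 9.53 and 9.50 in KO arrays, against 9.54, 9.53, 9.53 and 9.46 in WT arrays. The Timm17a groups did not overlap and the Timm17b groups did, with a Timm17b difference of 0.05 ± 0.05 that was 0.003 without KO replicate 1.

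Timm23 stood at -0.13 ± 0.05, and its other 3 probe sets gave -0.13, -0.14 and -0.14. KO replicate 3 lay lowest for it, and the difference was -0.06 without that array. Timm50, the receptor that guides leaders to the channel, differed by -0.08 ± 0.06. Timm22, the channel for carrier proteins, differed by -0.10 ± 0.08, and Timm29, known from human cells as a subunit of that complex, by 0.02 ± 0.05.

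All 6 genes of the import motor had differences below 0, against 53.3% of all genes and 65.0% of the brightest 4985. At an unadjusted p under 0.05 in limma 3 of them were lower, against 6.69% of all genes and 16.9% of the brightest 4985. Hspa9, the matrix HSP70 known as mortalin that pulls the protein in, was the largest. It read 12.04, 11.95 and 11.84 in KO arrays, against 12.24, 12.34, 12.17 and 12.14 in WT arrays. The groups did not overlap, with KO replicate 3 lowest and WT replicate 2 highest. The means were 11.94 ± 0.10 in KO (SD, n = 3) and 12.22 ± 0.09 in WT muscle (SD, n = 4), a difference of -0.28 ± 0.07 (SE) or 1.22-fold lower (adjusted p = 0.23 in limma).

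Timm44 tethers Hspa9 to the channel, and Grpel1 and Grpel2 exchange its nucleotide. Timm44 read 9.21, 9.19 and 9.24 in KO arrays, against 9.27, 9.39, 9.30 and 9.35 in WT arrays, a difference of -0.12 ± 0.04. Grpel1 read 9.945, 10.003 and 9.92 in KO arrays, against 10.03, 10.03, 10.05 and 10.13 in WT arrays, a difference of -0.10 ± 0.04. Neither overlapped between the genotypes, although the nearest values of opposite groups were about as close as replicates of 1 group. Grpel2 read 9.26, 9.205 and 9.34 in KO arrays, against 9.315, 9.53, 9.39 and 9.28 in WT arrays, which overlapped. Its difference was -0.11 ± 0.07. Dnajc19, a J protein, and Pam16, the J-like protein that holds it in check in yeast, both differed by -0.03, with standard errors of 0.03 and 0.05, and Pam16 stood at 0.03 without KO replicate 3.

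**Figure D2:**
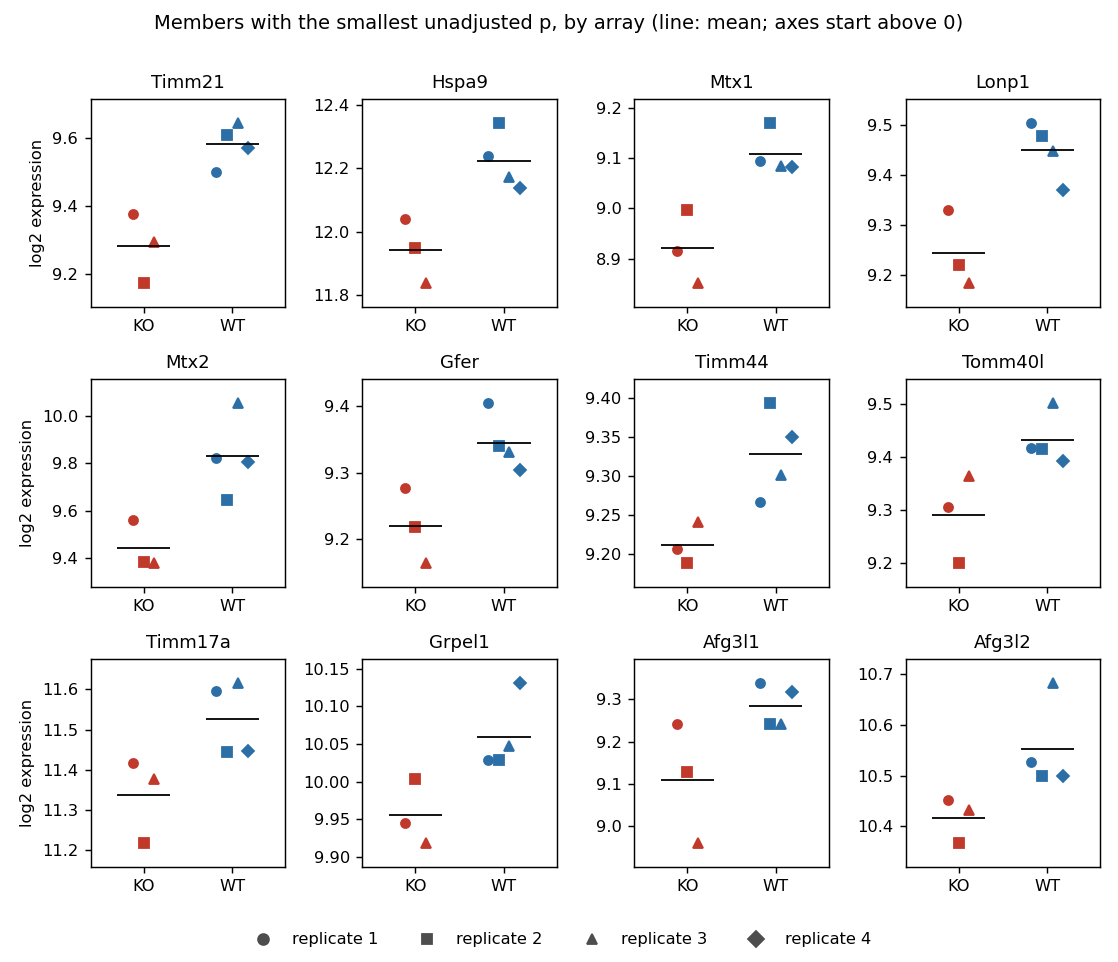
Log2 expression (vertical axes, each on its own range that does not start at 0) of the 12 members with the smallest unadjusted p on each KO and WT array, with symbols for replicate numbers and lines for group means. The KO points lie below all WT points in 11 of the 12 panels, and in that of Afg3l1 KO replicate 1 and WT replicates 2 and 3 share the value 9.24. The panels were chosen by p from the same values, which favours such separation. Of all 46 members 13, or 28.3%, separated this way, against 5.33% of all genes and 14.0% of the brightest 4985.

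In the matrix, the 4 genes for cutting and folding had a median difference of -0.07, about that of all members. Hspe1 had the widest spread between KO arrays of all members. Pmpca and Pmpcb, the subunits of the peptidase that removes the leader, differed by -0.09 ± 0.04 and -0.06 ± 0.03, and for Pmpcb all KO values lay below all WT values. Hspd1, the chaperonin HSP60, read 11.23, 11.34 and 10.90 in KO arrays, against 11.12, 11.44, 11.19 and 11.195 in WT arrays. Hspe1, its lid HSP10, read 11.23, 11.32 and 10.575 in KO arrays, against 10.99, 11.21, 11.04 and 11.07 in WT arrays. Both genes overlapped between the genotypes.

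For Hspe1 the other KO arrays were the highest of all 7 and KO replicate 3 the lowest, so the group mean describes none of them. The difference was -0.04 ± 0.17 over all arrays and 0.19 without KO replicate 3, where the unadjusted p was 0.028 and the adjusted p 0.39 in limma. Over all alternatives its adjusted p lay between 0.39 and 0.999 in limma. The second probe sets of Hspe1 and Hspd1 gave -0.08 ± 0.21 and -0.04 ± 0.16, and probe sets of such genes may also read near-identical copies elsewhere in the genome. For Hspd1 it was -0.08 ± 0.12 over all arrays and 0.05 without that array. Hspa9, by contrast, was -0.23 without KO replicate 3, and the chaperones of the matrix thus differed in how far 1 array decided them.

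**Figure D3:**
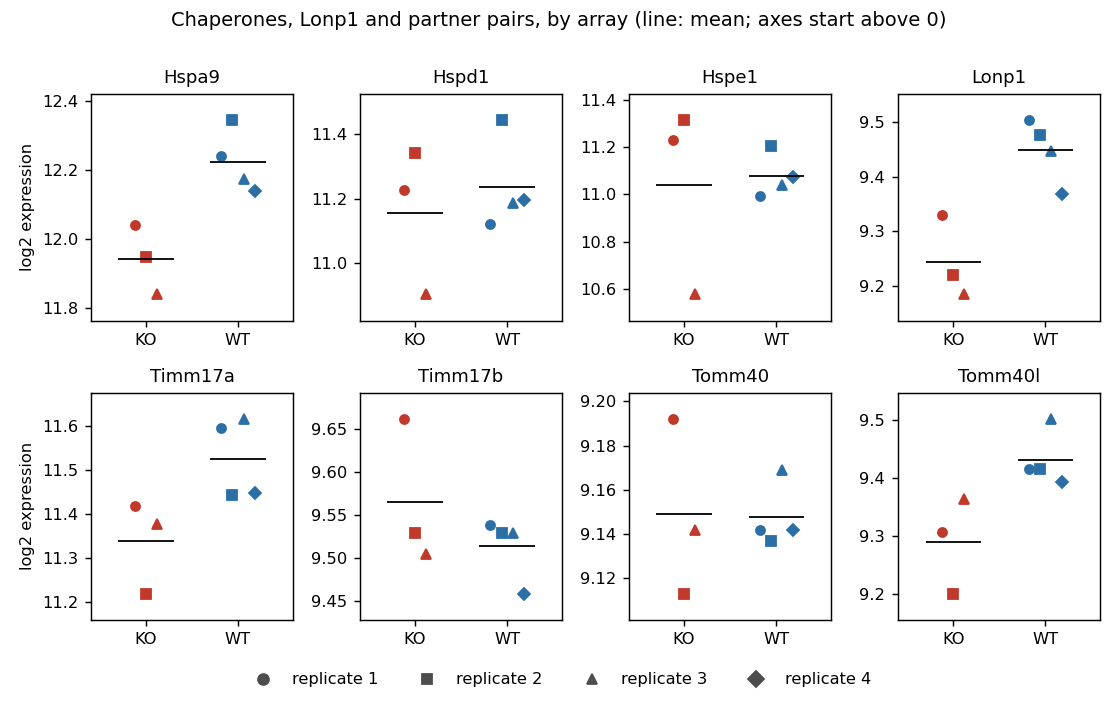
Log2 expression (vertical axes, each on its own range that does not start at 0) of Hspa9, Hspd1, Hspe1, Lonp1 and the pairs Timm17a with Timm17b and Tomm40 with Tomm40l, by KO and WT array, with symbols for replicate numbers and lines for group means. Hspd1 and Hspe1 spread widely between KO arrays, down to 10.90 and 10.575 in replicate 3, whereas the KO points of Hspa9, Lonp1, Timm17a and Tomm40l all lie below the WT points.

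Among the proteases and prohibitins all 8 measured genes had differences below 0, against 53.3% of all genes and 65.0% of the brightest 4985. At an unadjusted p under 0.05 in limma 4 were lower, against 6.69% of all genes and 16.9% of the brightest 4985. For Yme1l1 and Htra2 the difference was nearly 0, and leaving out 1 array turned it as far as 0.04 and 0.02. Lonp1, the main protease of the matrix, which degrades oxidized and misfolded proteins, read 9.33, 9.22 and 9.18 in KO arrays, against 9.50, 9.48, 9.45 and 9.37 in WT arrays. The groups did not overlap. The difference was -0.21 ± 0.05 (SE), or 1.15-fold lower (adjusted p = 0.23 in limma). Clpp, the proteolytic ring of the second matrix protease, differed by -0.12 ± 0.05, and by -0.07 without KO replicate 3. Its unfoldase Clpx differed by -0.08 ± 0.06.

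Afg3l2 and, in mice, Afg3l1 encode subunits of the m-AAA protease of the inner membrane. Afg3l1 read 9.24, 9.13 and 8.96 in KO arrays, against 9.34, 9.24, 9.24 and 9.32 in WT arrays, a difference of -0.18 ± 0.07, or -0.10 without KO replicate 3. Afg3l2 read 10.45, 10.37 and 10.43 in KO arrays, against 10.53, 10.50, 10.68 and 10.50 in WT arrays, a difference of -0.14 ± 0.05. Afg3l2 separated the genotypes and Afg3l1 did not, though its difference was the larger. Yme1l1, the protease that faces the intermembrane space, differed by -0.001 ± 0.04, and Htra2, a serine protease of that space, by -0.007 ± 0.04. Phb2, a prohibitin that scaffolds the m-AAA protease, differed by -0.07 ± 0.04.

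Whether partners differed unequally was asked for 5 pairs, as the change between genotypes of the within-array difference of their log2 values, with a two-sided exact permutation test over the 35 ways to choose 3 of 7 arrays. Timm17a minus Timm17b was 1.77 ± 0.09 in KO (SD, n = 3) and 2.01 ± 0.08 in WT muscle (SD, n = 4), a change of -0.24 without overlap. Tomm40 minus Tomm40l was -0.14 ± 0.07 in KO and -0.28 ± 0.03 in WT muscle, a change of 0.14 without overlap. These differences set probe sets of unlike response side by side, so their level carries no meaning. Unlike response can also alter the size of their change. Each gave an exact permutation p of 0.029, the smallest the design allows, and 0.071 after Benjamini-Hochberg adjustment over the 5 pairs. Neither passed, but with only these pairs at the smallest p neither could have. The adjusted p therefore does not decide whether these partners differed unequally.

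The other pairs overlapped. The change was 0.01 for Grpel1 minus Grpel2, -0.04 for Afg3l1 minus Afg3l2 and -0.04 for Hspd1 minus Hspe1, with exact permutation p of 0.91, 0.54 and 0.63. The prohibitin pair was not tested, since Phb shares its probe sets with Fyb. These p-values do not show that the partners changed alike.

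The KO arrays differed in how low the members stood. Set against the mean of the WT arrays, the median member stood at -0.03 in KO replicate 1, -0.05 in replicate 2 and -0.13 in replicate 3, and between -0.03 and 0.002 in the WT arrays. Over all genes those KO medians were -0.01, -0.01 and 0.01. KO replicate 3 held the lowest value of 26 of the 46 members, or 56.5%, against 17.6% of all genes. KO replicate 2 held that of 12 members, or 26.1%, against 19.0% of all genes, and KO replicate 1 that of 0, against 15.2%. KO replicate 3 also had the highest array median and the lowest array weight in limma, 0.294.

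Without KO replicate 3 the members' median was -0.04, against -0.02 over all genes, and 9 of the 14 members remained lower at an unadjusted p under 0.05, while the difference of Hspe1 lay above 0 at that p. Those 9 were Timm21, Hspa9, Mtx1, Lonp1, Mtx2, Gfer, Timm44, Tomm40l and Timm17a. They were 19.6% of the members, against 6.51% of all genes in the same fit. Without KO replicate 2, 8 members were lower at that p, or 17.4%, against 4.14% of all genes. The share among the brightest 4985 genes was not computed for these fits, and with all arrays it was 16.9%. In each of the 15 alternatives that were run, 6 members stayed under that p, namely the first 6 of those 9. Of the 39 members below 0, 31 stayed below 0 whichever array was left out. Neither this count nor that of the 6 was made over all genes.

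**Figure D4:**
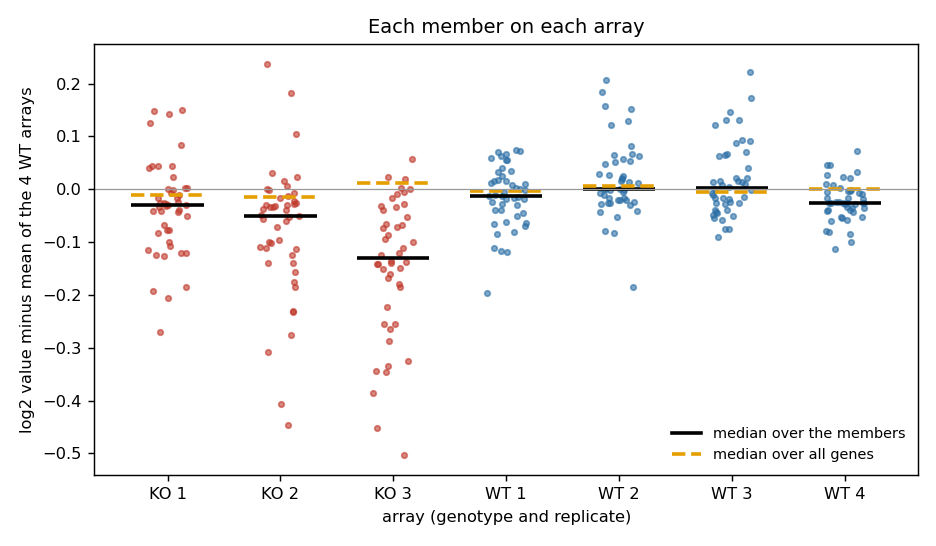
Log2 value of each of the 46 members minus its mean over the 4 WT arrays (vertical axis), for each KO and WT array, with solid lines for the median over the members and dashed lines for the median over all genes. The members' median stands at -0.13 in KO replicate 3, against -0.03 in KO replicate 1, while the median of all genes stays near 0 in every array.

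Other genes of import, membrane organization and mitochondrial stress were read from a list of 39 that shares no member with the set. Of the 34 measured, 0 had an adjusted p under 0.05 in limma, 9, or 26.5%, were lower at an unadjusted p under 0.05 and 0 were higher, against 6.69% of all genes lower and 16.9% of the brightest 4985. Of the 34, 30, or 88.2%, lay below 0, with a median of -0.08. Of all genes 53.3% lay below 0, and of the brightest 4985 65.0% did. Chchd3, a subunit of the MICOS complex that shapes the cristae, read 12.06, 12.07 and 11.985 in KO arrays, against 12.18, 12.26, 12.24 and 12.22 in WT arrays, a difference of -0.19 ± 0.04. Parl, a rhomboid protease of the inner membrane, differed by -0.26 ± 0.07. The 2 highest by p were the stress factor Ddit3, at 0.14 ± 0.12, and the MICOS subunit Chchd6, at 0.06 ± 0.07, neither under an unadjusted p of 0.05. The stress response factors Atf5 and Atf4 differed by -0.03 ± 0.03 and -0.06 ± 0.08.

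Other mitochondrial gene families are set beside the members' median of -0.07. The 35 complex I subunits had a median of -0.16, with 24, or 68.6%, lower at an unadjusted p under 0.05 in limma. That was met by 6.69% of all genes and 16.9% of the brightest 4985 in the same direction. The 77 mitochondrial ribosomal proteins had a median of -0.10, with 23, or 29.9%, lower at that p, against 30.4% of the import and quality control genes. Whether the families differ was not tested.

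Markers of other cells differed between the same arrays. At an unadjusted p under 0.05 in limma, 6.69% of all genes were lower and 3.93% higher. Of the brightest 4985 genes 16.9% were lower and 5.98% higher at that p. Of 7 measured macrophage markers, 6 were higher at an unadjusted p under 0.05 in limma, and their summed signal ran from 12.31 to 12.43 in KO and from 11.51 to 11.67 in WT arrays on the log2 scale. Of 6 endothelial markers 4 were lower, with a summed signal of 11.88 to 11.98 in KO and 12.16 to 12.33 in WT arrays. Of 5 slow fibre markers 4 were higher, with sums of 11.51 to 12.09 in KO and 10.98 to 11.28 in WT arrays. Pericyte and smooth muscle markers had 2 of 5 lower, with sums of 12.19 to 12.30 in KO and 12.33 to 12.51 in WT arrays, and adipocyte markers 2 of 5 lower, with sums of 11.17 to 11.32 in KO and 11.37 to 11.64 in WT arrays. The adipocyte sum rests mostly on Fabp4, which averaged 11.02 in WT arrays, where the next brightest, Cidec, averaged 8.15. Plin1, Cidec and Lep overlapped between the genotypes, and Fabp4 and Adipoq did not. Of 5 fibroblast markers 2 were higher, with sums that overlapped, at 13.85 to 14.07 in KO and 13.76 to 14.03 in WT arrays. The lists for T and B cells, Schwann cells and nerve, erythroid cells and satellite cells had 0 markers under that p, with overlapping sums. Fast fibre markers had sums of 16.59 to 16.61 in KO and 16.57 to 16.62 in WT arrays, with 0 of 7 under that p. The part of these cells in the members' differences was not tested.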

How the data were processed

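Biotin-labelled cDNA from 100 ng of TRIzol-extracted total RNA per mouse was read on 1 array each (per the labels' protocols, with Ambion's WT Expression Kit). The authors deposited 1 table of log2 values for 28856 probe sets on 7 arrays. The base is inferred, since values ran from 4.41 to 14.65 and a 16-bit scanner reaches 11.09 in natural logs. Background correction, normalization and summarization: not given in the sources used here. If arrays were scaled to each other, a shift common to all genes would be hidden.

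Probe sets were named through GEO's platform annotation: 21789 had 1 symbol and were tested, 1621 had several and 5446 had none. A gene was read through its probe set with the highest mean over all 7 arrays (999 genes had several). KO minus WT was fitted over the tested probe sets with limma 3.58.1 (lmFit, eBayes) in R 4.3.3, with no covariate, and Benjamini-Hochberg adjustment at 0.05. Unless marked SD, ± gives the moderated standard error. The fit was tested on simulated data. Each array was taken as 1 mouse, from the series design. All 46 measured members matched RefSeq by gene identifier.

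The members and lists were chosen with earlier results of these data known. Every measured member is named. Values by array are given for the 12 members with the smallest unadjusted p, for others that differed by at least 0.3 and for partners in pairs, and those of Timm8b and Chchd3 were added after their values were seen. Of the other import genes the 2 with the smallest p in each direction are named, and Atf4 and Atf5 were added afterwards.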

Additional observations from a re-analysis of the deposited data

Results flagged for a closer look

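In 8 of the 46 members 1 WT array stood far from the other 3, by Dixon's test within the 4 WT arrays, or 17.4%, against 20.5% of all genes, so the members were marked about as often as genes at large. The usual rate of about 1 in 20 groups assumes values without ties, and 6 of the 8 have equal values on several WT arrays. WT replicate 3 was highest for Afg3l2 at 10.683 (next 10.527), Phb2 at 11.326 (next 11.214), Chchd4 at 8.049 (next 7.965) and Tomm40 at 9.169 (next 9.142). WT replicate 2 was highest for Mtx1 at 9.17 (next 9.094) and Dnajc19 at 9.374 (next 9.304). WT replicate 1 was highest for Timm29 at 9.082 (next 8.996), and WT replicate 4 was lowest for Timm17b at 9.458 (next 9.528). The 3 KO arrays are too few for this test.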

How the results depend on the processing

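No member had an adjusted p under 0.05 in limma in any of the 15 alternatives, and 0 had one under 0.10 in the fit reported. Of the 17 genes followed through them, 14 kept their direction. The members lower at an unadjusted p under 0.05 in limma numbered 14, against 9 after further quantile normalization and 8 to 13 when 1 array was left out (8 without KO replicate 2, and 9 without KO replicate 3 or without WT replicate 1). They were 30.4%, 19.6% and 17.4% to 28.3% of the members. In the same fits 6.69%, 7.10% and 4.14% to 8.50% of all genes were lower at that p. Among the brightest 4985 genes the share was computed only for the fit reported, at 16.9%. Members higher at that p numbered 0, and 0 to 1 with 1 array left out, the 1 being Hspe1 without KO replicate 3. Members without overlap numbered 13 lower and 0 higher, and 13 to 21 lower and 0 to 1 higher with 1 array left out (21 without KO replicate 1, or 45.7%, where 12.3% of all genes did not overlap in that direction, against 5.33% with all arrays). Further quantile normalization gave 10 lower without overlap, or 21.7%, against 7.21% of all genes. The members' median stayed between -0.10 and -0.04 throughout. The other import genes lower at an unadjusted p under 0.05 in limma numbered 9, and 5 to 11 with 1 array left out (5 without KO replicate 2, where 4.14% of all genes were lower). With array weights the difference was 0.0485 for Hspd1, 0.14 for Hspe1 and -0.0048 for Tomm40, and median centring gave -0.0149 for Tomm40. Leaving out 1 array gave -0.17 to 0.0474 for Hspd1, -0.18 to 0.19 for Hspe1 and -0.0197 to 0.0197 for Tomm40. The cause was not tested. Same-numbered KO and WT arrays correlated at 0.30, 0.15 and -0.20 in their deviations from the group means. So few values cannot decide whether the numbers pair the mice. With the replicate block, which drops WT replicate 4, 10 members were lower at that p, or 21.7%, against 5.10% of all genes. In that fit 0 members passed, and their median was -0.08. KO replicates 1 and 2 correlated best with their own number and KO replicate 3 did not.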
